A study of Sus scrofa with 22 samples.

Results

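The heat shock proteins and molecular chaperones described here were 57 of the 6765 genes named on a porcine expression array. They were chosen by a rule on the symbol alone, which was set with earlier results of these data known. They comprised every gene whose single annotated symbol began with HSPA, HSPB, HSPD, HSPE, HSPH, HSP70, HSP90, DNAJA, DNAJB, DNAJC, BAG with a number or CCT with a number, together with TCP1 and CRYAB. Of their 95 probe sets, each gene was read from the one with the highest mean log2(signal + 16) over all samples. By family they were 7 small heat shock proteins, 4 BAG co-chaperones, 11 HSP70 and HSP110 genes, 3 HSP90 genes, 22 J-domain proteins, 2 subunits of the mitochondrial chaperonin and 6 of the cytosolic chaperonin. The symbol prefixes also took in HSPBP1, a nucleotide exchange factor for HSP70, and HSPB11, which despite its name belongs to the intraflagellar transport machinery. All 4 stage means were above background in 54 of the 57 genes, where background was a signal of 69.7, the 95th percentile of control probe sets without a target. DNAJC6, DNAJC9 and HSPA12A fell below it at some stages.

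The 22 samples came from offspring of German Landrace gilts, all of which received a gestational diet adequate in protein, so that no group differed in diet. Animals were taken as fetuses at 94 days post conception (94 dpc, 6 samples) and at 1, 28 and 188 days post natum (1 dpn and 28 dpn, 6 samples each; 188 dpn, 4 samples). The comparisons asked how transcript levels moved across birth (94 dpc to 1 dpn), over the first weeks (1 dpn to 28 dpn), on to the older pig (28 dpn to 188 dpn) and from end to end (94 dpc to 188 dpn). At each stage 3 gilts contributed offspring. Which animals were littermates is not stated in the labels, so each animal was treated as independent, and p-values are too small to the extent that littermates are alike.

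Chaperones bind proteins that are unfolded or only partly folded. Small heat shock proteins hold such clients without using ATP, and in muscle several of them sit at the Z-disc and along desmin filaments. HSP70 proteins bind and release clients in an ATP cycle: J-domain proteins bring the client and trigger hydrolysis, and BAG proteins, HSPBP1 and the HSP110 proteins release the nucleotide. HSP90 finishes kinases, steroid receptors and, with a dedicated partner, muscle myosin. Chaperonins are closed chambers, HSPD1 with its lid HSPE1 in the mitochondrial matrix and the TCP1 ring complex in the cytosol, where it folds actin and tubulin. The inducible members respond to heat shock factor HSF1.

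The sample labels name the tissue as liver, whereas the series title names muscle. All 12 measured skeletal muscle markers were above background at each stage, with summed signals of 267747 to 349277 at 94 dpc, 358462 to 547739 at 1 dpn, 687763 to 791849 at 28 dpn and 665683 to 763058 at 188 dpn. The 13 measured liver markers summed to 7920 to 53874 at 94 dpc, 2487 to 10947 at 1 dpn, 2592 to 12088 at 28 dpn and 2133 to 6364 at 188 dpn. ALB, the serum albumin gene, had stage means of 291 to 904. In the fetus APOA1, AHSG and SERPINA1 were higher, at mean signals of 8823, 7150 and 3970. APOA1 ran from 7056 to 12788 over the fetal arrays, but AHSG from 172 to 21645 and SERPINA1 from 173 to 13814. The muscle sums were above the liver sums at every stage, so the values below are described as those of muscle tissue. The part of the rising muscle marker sum in the chaperone values was not tested. In such bulk RNA, fewer cells of a type and less RNA per cell cannot be told apart. On 4 of the 6 arrays at 1 dpn (replicates 2 to 5) the GAPDH control signal at the 3′ end was 3.01 to 7.16 times that at the 5′ end, against 0.795 to 1.37 on every other array. For the chaperone genes, changes to or from 1 dpn are therefore also given from a fit on the even arrays, which leaves out those 4 and rests on replicates 1 and 6 for that stage. Replicates 1 and 6 also had the lowest muscle marker sums of 1 dpn, 358462 and 370559, against 457516 to 547739 on replicates 2 to 5. Their summed macrophage markers were 2794 and 3900, against 1574 to 2042. The part of the uneven 5′ signal or of these marker differences in the results was not tested.

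Across birth more chaperone genes rose than fell, from 1 dpn to 28 dpn more fell than rose, and from 28 dpn to 188 dpn every called change was a rise. Between 94 dpc and 1 dpn, 26 of the 57 genes rose and 8 fell in the limma fit over all 23999 probe sets (Benjamini-Hochberg adjusted p under 0.05), where 10.9% of all probe sets rose and 21.7% fell. The share over the brightest probe set of each named gene was 17.3% higher and 23.8% lower. The median log2 change of the chaperone genes was 0.42, beside -0.08 over all probe sets. Centring each array on its median probe set made the split 32 higher and 4 lower. On the even arrays 31 rose and 5 fell, where 7.79% of all probe sets rose and 17.6% fell, and 28 of the 34 calls were kept.

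From 1 dpn to 28 dpn, 5 chaperone genes rose and 19 fell, against 13.9% of all probe sets higher and 8.39% lower (15.1% and 12.9% of the named genes), and their median log2 change was -0.34. On the even arrays 3 rose and 21 fell, against 11.2% and 5.39%, and 17 of the 24 calls were kept. From 28 dpn to 188 dpn, 11 rose and none fell by limma at the adjusted threshold, against 3.65% and 8.20% of all probe sets and 5.03% and 11.0% of the named genes. DNAJA4 was the 1 gene lower there at an unadjusted p under 0.05. Of the 11 rises, 6 were called in every fit that left out 1 array, and leaving out 188 dpn replicate 2 reduced the count to 7. From 94 dpc to 188 dpn, 23 rose and 7 fell, against 13.6% and 22.5% of all probe sets and 18.4% and 27.0% of the named genes, and centring each array on its median changed this to 29 and 4. Over the 4 stages together the F test called 41 of the 57 genes, against 51.4% of all probe sets and 64.1% of the named genes.

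**Figure D1:**
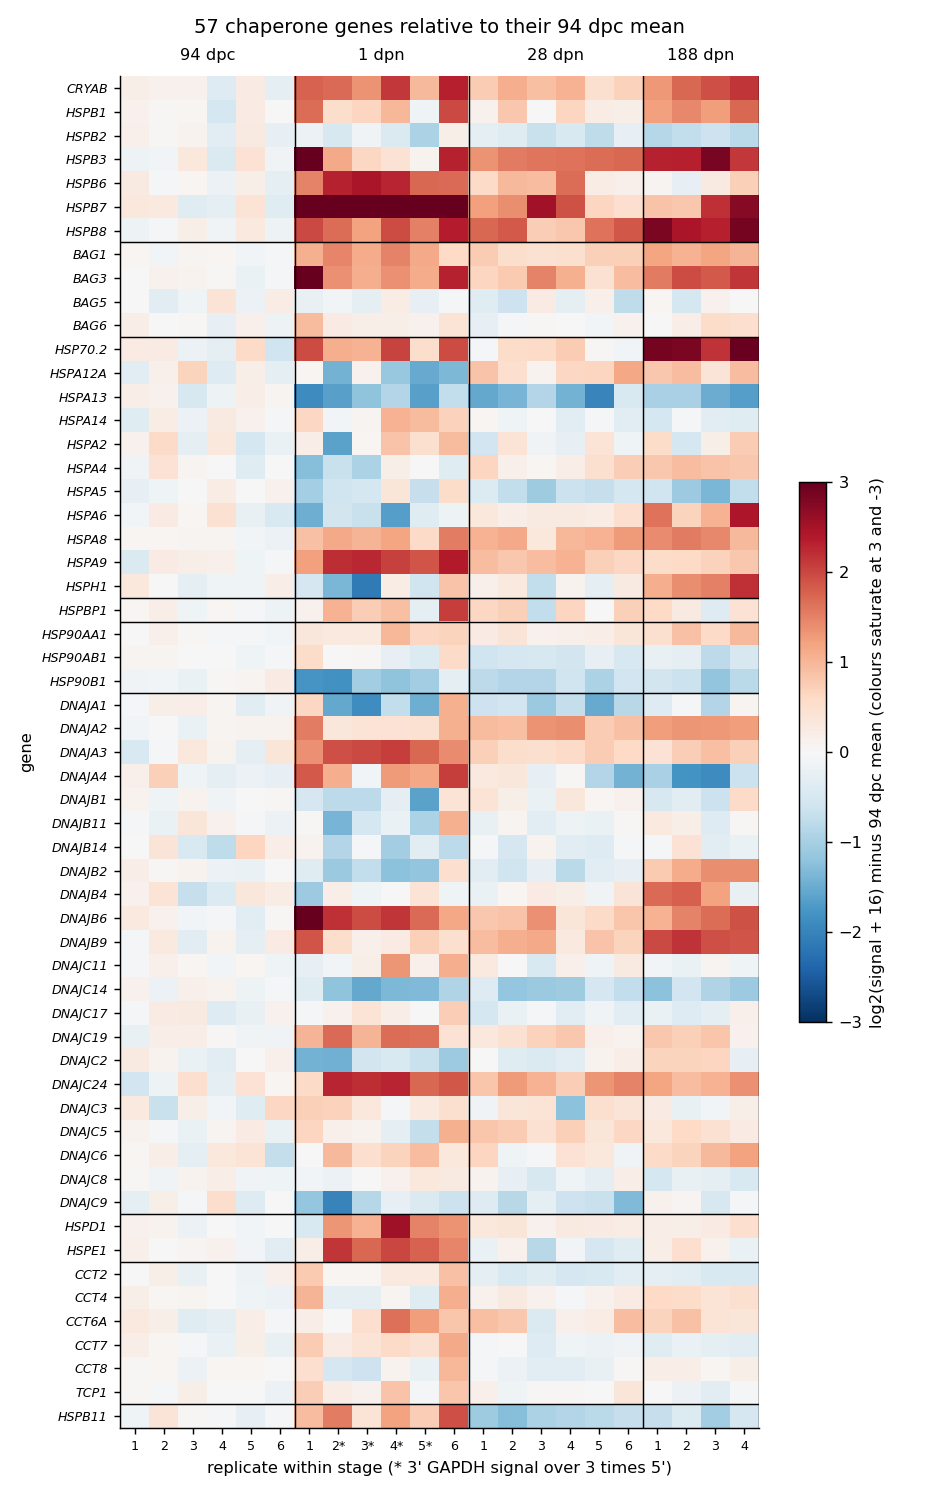
Log2(signal + 16) of all 57 chaperone genes on each of the 22 arrays, minus the mean of that gene at 94 dpc; colours saturate at 3 log2 units above or below that mean. Genes are grouped by family, and the small heat shock proteins contain the largest rise from 94 dpc to 1 dpn, that of HSPB7 at 3.67.

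The small heat shock proteins rose across birth in 6 of 7 genes, beside 17.3% of the named genes. CRYAB, HSPB1 and HSPB8 rose again between 28 dpn and 188 dpn, beside 5.03% of the named genes. HSPB7, a heart and skeletal muscle protein that binds filamin C, had signals at 94 dpc from 472 through a median of 630 to 816, and at 1 dpn from 5664 through 8043 to 10673. Every newborn array lay above every fetal one. At 28 dpn the lowest, median and highest signals were 882, 1553 and 3617, and the 188 dpn signals were 1128, 1093, 2856 and 4163, so that these older stages overlapped each other and lay between the fetal and newborn ranges. The log2 change of HSPB7 was 3.67 (SE 0.34, adjusted p = 7.87e-08) across birth and -2.30 (SE 0.34, adjusted p = 4.79e-05) to 28 dpn, and on the even arrays 3.70 and -2.33.

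CRYAB, the αB-crystallin that protects desmin filaments, had the lowest, median and highest signals of 6855, 9790 and 10490 at 94 dpc and 17528, 29636 and 45102 at 1 dpn. At 28 dpn they were 12509, 15943 and 19139, and the 4 signals at 188 dpn were 21937, 29494, 33922 and 39401. Newborn and 188 dpn arrays were all above the fetal range, and the 28 dpn range overlapped the lower end of the newborn one and lay under the 188 dpn one. CRYAB rose by 1.71 (SE 0.21, adjusted p = 2.63e-06) on the log2 scale across birth, fell by 0.87 (SE 0.21, adjusted p = 0.00468) to 28 dpn and rose by 0.94 (SE 0.24, adjusted p = 0.0116) to 188 dpn. The first 2 of these were also called on the even arrays, at 2.05 and -1.22.

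HSPB8, which works with BAG3 in clearing damaged filament proteins, had its highest signals at 188 dpn. The lowest, median and highest were 2230, 2350 and 3042 at 94 dpc, 5725, 8876 and 12738 at 1 dpn, and 4195, 7993 and 9111 at 28 dpn, before 17717, 13737, 12585 and 18283 at 188 dpn. Fetal arrays were below all others. The 1 dpn range overlapped both later ones, and the 28 dpn and 188 dpn ranges did not meet. HSPB8 rose by 1.78 (SE 0.22, adjusted p = 2.77e-06) across birth and by 1.18 (SE 0.25, adjusted p = 0.00321) from 28 dpn to 188 dpn, with -0.34 (adjusted p = 0.306) between. The even arrays gave 2.16 and, not called, -0.73 (adjusted p = 0.106) for the first 2 changes.

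HSPB1, the stress-inducible HSP27 that also binds actin, ran from 4994 through 7413 to 8540 at 94 dpc and from 6590 through 12691 to 28081 at 1 dpn. At 28 dpn it ran from 7127 through 8245 to 12586, and the 188 dpn signals were 16802, 19377, 16985 and 23480, above every 28 dpn array. Its rise across birth was 0.95 (SE 0.27, adjusted p = 0.00884) with overlapping ranges, 1.82 on the even arrays and 0.55 (adjusted p = 0.124) after quantile normalization. The rise to 188 dpn was 1.07 (SE 0.30, adjusted p = 0.0215), and that call was lost without 188 dpn replicate 2 or replicate 4 (adjusted p up to 0.0690). Set against CRYAB, HSPB1 rose less across birth by 0.76 log2 units (SE 0.19, exact two-sided permutation p = 0.00433, adjusted over 15 comparisons 0.0216). The even arrays gave -0.24 (adjusted p = 0.214), where 6 samples against 2 allow no exact p under 0.05. In the later steps the difference between HSPB1 and CRYAB was 0.26 (SE 0.21) and 0.13 (SE 0.16), with adjusted exact p = 0.290 and 0.469.

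HSPB6, the small heat shock protein of smooth and striated muscle, had its highest signals at 1 dpn. Its signals ran from 1820 to 2664 at 94 dpc and from 6242 to 12262 at 1 dpn, without overlap, then from 2477 to 7173 at 28 dpn and from 1854 to 3629 at 188 dpn. It rose by 1.99 (SE 0.24, adjusted p = 2e-06) across birth and fell by 1.24 (SE 0.24, adjusted p = 0.000765) to 28 dpn. The even arrays gave 1.59 and, not called, -0.84 (adjusted p = 0.0948). A dimmer second probe set of HSPB6 gave -0.72 across birth with no call, and 1.15 to 28 dpn, called in the opposite direction.

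HSPB2 and HSPB3 form a complex with each other in muscle, and they changed in opposite directions from 94 dpc to 188 dpn. HSPB3 ran from 309 through 399 to 580 at 94 dpc, and its 188 dpn signals were 2166, 2188, 3137 and 1894. HSPB2 ran from 5292 through 6858 to 7883 at 94 dpc, and its 188 dpn signals were 3597, 3911, 4258 and 3715. For both genes these 2 stages did not overlap. The change from 94 dpc to 188 dpn was 2.40 (SE 0.40, adjusted p = 5.17e-05) for HSPB3 and -0.76 (SE 0.20, adjusted p = 0.00367) for HSPB2. At 1 dpn, HSPB3 was 3749 and 2152 on the even arrays and 456 to 946 on the other 4, so its rise across birth was 1.28 (adjusted p = 0.00834) over all arrays and 2.70 on the even ones. Its change from 1 dpn to 28 dpn was 0.31 over all arrays and -1.11 (adjusted p = 0.00579) on the even ones.

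**Figure D2:**
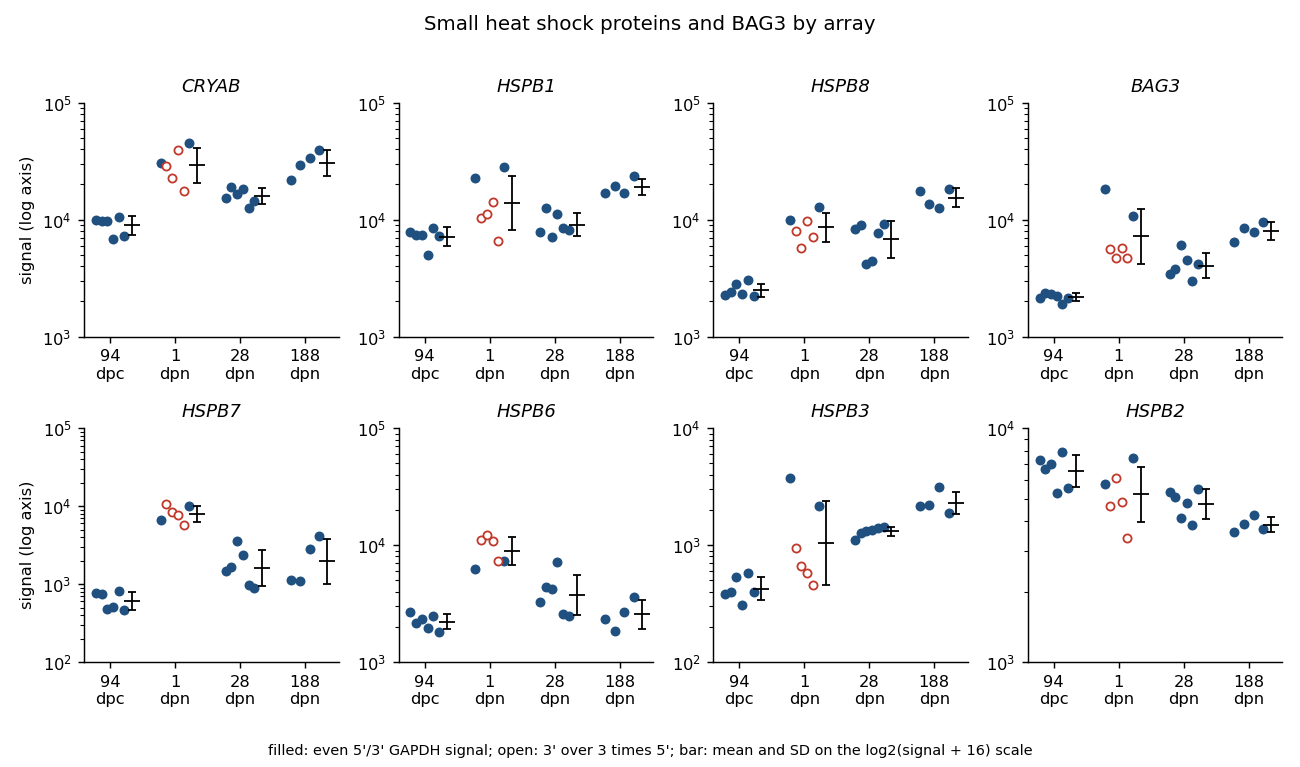
Signal (log axis) of CRYAB, HSPB1, HSPB8, BAG3, HSPB7, HSPB6, HSPB3 and HSPB2 on each array by stage; open red points are the 4 arrays of low 5′ signal, and bars give the mean and SD on the log2(signal + 16) scale. HSPB7 and HSPB6 peak at 1 dpn, while the 188 dpn signals of HSPB8 lie between 12585 and 18283, above all those at 28 dpn.

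Among the BAG proteins, BAG1 and BAG3 rose across birth and again to 188 dpn, and BAG5 and BAG6 were called in no comparison over all arrays. BAG6 was called across birth (0.68) and to 28 dpn (-0.72) on the even arrays. BAG3, the scaffold that joins HSPB8 to HSP70 at the Z-disc, ran from 1894 through 2177 to 2360 at 94 dpc, from 4662 through 5653 to 18134 at 1 dpn and from 3008 through 3963 to 6071 at 28 dpn. Its signals at 188 dpn were 6387, 8478, 7820 and 9581. Newborn and 188 dpn arrays were all above the fetal ones, and 188 dpn was above 28 dpn throughout. The log2 changes of BAG3 in the 3 steps were 1.72 (SE 0.27, adjusted p = 3.63e-05), -0.83 (SE 0.27, adjusted p = 0.0293) and 0.98 (SE 0.30, adjusted p = 0.0357). On the even arrays, which held the values 18134 and 10791, the first of these was 2.68 and the second -1.79. The fall was lost without 1 dpn replicate 1 or 6 or 28 dpn replicate 1, 2 or 5 (adjusted p up to 0.0701). The last rise was lost without 28 dpn replicate 1, 2 or 5 or 188 dpn replicate 2, 3 or 4 (adjusted p up to 0.0991). A dimmer second probe set of BAG3 gave 1.06 across birth, called, and 0.69 to 28 dpn with no call.

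BAG1, an exchange factor that couples HSP70 to the proteasome, ran from 1825 to 2045 at 94 dpc, 2948 to 5475 at 1 dpn, 2645 to 3310 at 28 dpn and 3959 to 4418 at 188 dpn. It rose by 1.14 (SE 0.15, adjusted p = 3.9e-06) across birth, or 0.83 on the even arrays, with no overlap. A second probe set of BAG1, with a mean signal of 945, gave -0.57 across birth with no call. The brightest set's fall of 0.53 to 28 dpn was -0.22 (adjusted p = 0.416) on the even arrays, and the second set was called higher there. The rise of 0.50 to 188 dpn (adjusted p = 0.0492) was lost in 17 of the 22 fits that left out 1 array, among them every fit without an array of 94 dpc, 28 dpn or 188 dpn, with adjusted p up to 0.120.

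In the HSP70 and HSP110 family the inducible members were highest at 188 dpn, the mitochondrial member at 1 dpn, and 2 members of the endoplasmic reticulum in the fetus, by stage mean. HSP70.2, the stress-inducible cytosolic HSP70 that RefSeq also lists as HSPA1A and HSPA1B, ran from 2645 through 4163 to 5981 at 94 dpc, from 5828 through 12104 to 16575 at 1 dpn and from 3778 through 5005 to 6873 at 28 dpn. At 188 dpn it read 29513, 28571, 18193 and 31588, above every other array of the study. The log2 change of HSP70.2 was 1.44 (SE 0.27, adjusted p = 0.000261) across birth, -1.14 (SE 0.27, adjusted p = 0.0036) to 28 dpn and 2.41 (SE 0.30, adjusted p = 2.69e-05) to 188 dpn. On the even arrays the first 2 steps were 1.96 and -1.66. All 3 of its probe sets were called higher in the step to 188 dpn, at 2.41, 2.17 and 2.54, while the dimmest set gave 0.40 and 0.22 in the first 2 steps with no call. HSP70.2 and HSPA8 are close copies, and probes of such genes can share signal.

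HSPH1, the HSP110 exchange factor, and HSPA6, a strictly inducible HSP70, also had their highest signals at 188 dpn. HSPH1 ran from 427 to 653 at 94 dpc, 107 to 952 at 1 dpn and 306 to 640 at 28 dpn, and read 1121, 1396, 1510 and 2426 at 188 dpn. No earlier array reached the 188 dpn range, and the last step was 1.58 (SE 0.39, adjusted p = 0.01). HSPA6 ran from 117 to 238 at 94 dpc, 43.1 to 151 at 1 dpn and 196 to 246 at 28 dpn, and read 558, 275, 366 and 982 at 188 dpn. HSPA6 fell by 0.80 across birth (adjusted p = 0.0282) and rose to 28 dpn (adjusted p = 0.00569), neither called on the even arrays (adjusted p = 0.14 and 0.0564). The fall was also lost without 94 dpc replicate 2 or 4 or 1 dpn replicate 1 or 4 (adjusted p up to 0.0796). It rose by 1.15 (SE 0.31, adjusted p = 0.0165) in the last step, a call that was lost without 188 dpn replicate 4 (0.82, adjusted p = 0.0878).

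HSPA8, the constitutive cytosolic HSP70, ran from 9792 through 11599 to 11828 at 94 dpc, 16622 through 23634 to 32522 at 1 dpn and 13832 through 22932 to 27154 at 28 dpn, with 29798, 33015, 30391 and 21769 at 188 dpn. All postnatal arrays were above all fetal ones, and the postnatal stages overlapped one another. HSPA8 rose by 1.06 (SE 0.18, adjusted p = 9.35e-05) across birth and then changed by -0.09 and 0.38, neither called. The even arrays gave 1.21 and -0.25 for the first 2 changes. Its 3 other probe sets were dim, with mean signals of 161, 149 and 89.5, and fell by 1.01 to 1.38 from 94 dpc to 188 dpn, where the bright set rose by 1.35.

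HSPA9, the mitochondrial HSP70 that pulls imported proteins into the matrix, ran from 3535 through 4978 to 5645 at 94 dpc and from 11224 through 21056 to 24643 at 1 dpn. It then ran from 7274 through 8732 to 9752 at 28 dpn and read 6944, 7223, 7727 and 8402 at 188 dpn. Newborn arrays were above those of every other stage. HSPA9 rose by 2.00 (SE 0.18, adjusted p = 4.57e-08) and fell by 1.16 (SE 0.18, adjusted p = 6.16e-05), with 1.80 and -0.96 on the even arrays. A dim probe set of HSPA9, with a mean signal of 224, rose by 0.85 where the others fell. The cytosolic HSPA8 rose less than HSPA9 across birth by 0.95 log2 units (SE 0.17), and from 1 dpn to 28 dpn its change was 1.07 (SE 0.23) above that of HSPA9, which fell, with exact two-sided permutation p = 0.00216 and 0.00433 and adjusted p = 0.0216 for both. On the even arrays these differences were -0.59 (adjusted p = 0.153) and 0.72 (adjusted p = 0.214). There 6 samples against 2 allow no exact two-sided p under 0.05, so neither difference could pass the threshold.

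**Figure D3:**
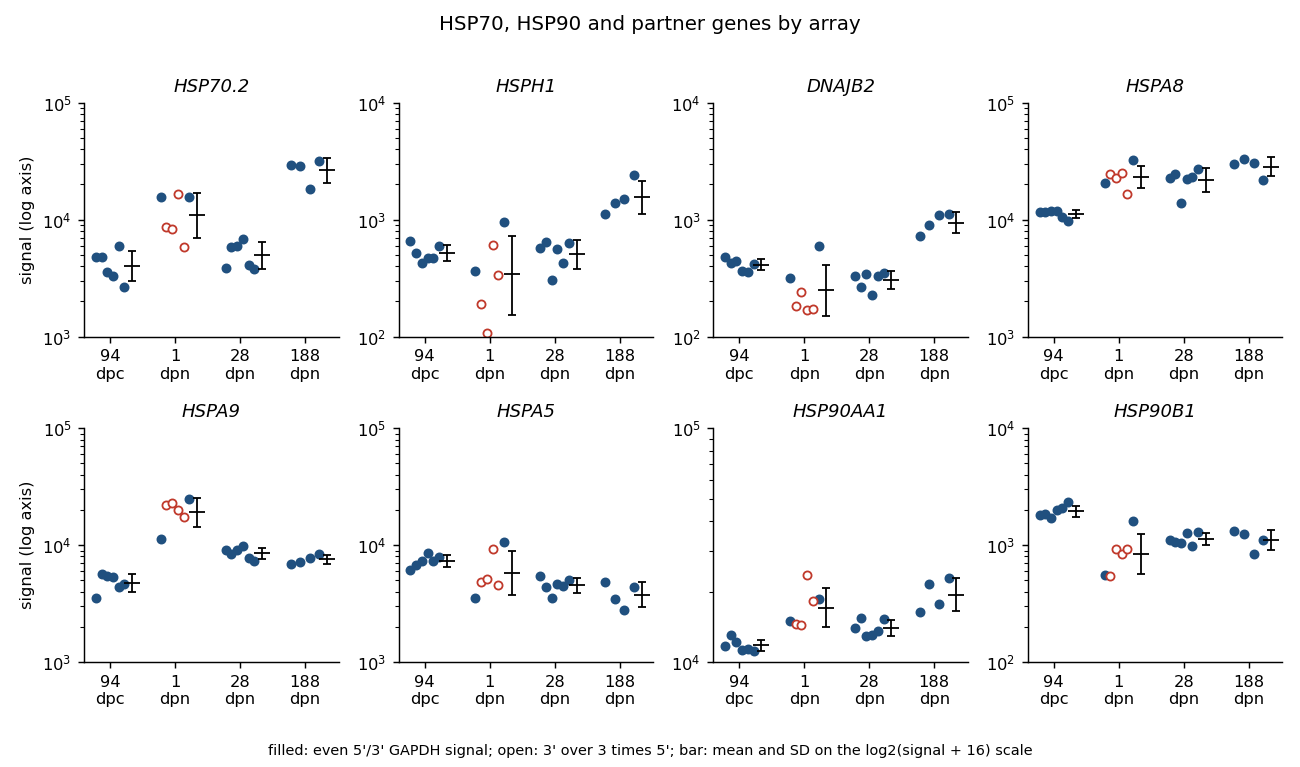
Signal (log axis) of HSP70.2, HSPH1, DNAJB2, HSPA8, HSPA9, HSPA5, HSP90AA1 and HSP90B1 on each array by stage; open red points are the 4 arrays of low 5′ signal, and bars give the mean and SD on the log2(signal + 16) scale. HSP70.2, HSPH1 and DNAJB2 are highest at 188 dpn, HSPA9 at 1 dpn, and HSP90B1 at 94 dpc.

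The other HSP70 relatives had weaker signals. HSPA4, an HSP110-type exchange factor, ran from 171 to 496 at 1 dpn and from 449 to 733 at 28 dpn, and rose by 0.89 (SE 0.21, adjusted p = 0.00421) in that step, or 1.19 on the even arrays. HSPA14 and DNAJC2 form a pair that sits on the ribosome and meets nascent chains, and their changes had opposite signs in the first 2 steps. HSPA14 rose by 0.55 (adjusted p = 0.0287) and fell by 0.67 (adjusted p = 0.0117), the rise being lost without 94 dpc replicate 1, 3 or 6 or 1 dpn replicate 4 or 5 (adjusted p up to 0.0769), whereas DNAJC2 fell by 0.94 (adjusted p = 0.00137) and rose by 0.81 (adjusted p = 0.0075). On the even arrays the changes of HSPA14 were 0.65 and -0.78 and those of DNAJC2 -1.26 and 1.12, all 4 called. HSPA12A, a distant relative, was below background on all 1 dpn arrays and averaged 101 at 28 dpn, at least 1.33-fold higher when set against the background, with a log2 change on the even arrays of 1.28 (adjusted p = 0.0162). HSPA12A was also below background on 1 of the 6 arrays at 28 dpn. Its call of lower across birth lay between stage means that were both below background and was lost without 94 dpc replicate 3 or 1 dpn replicate 2 or 5 (adjusted p up to 0.0579). HSPA2, best known from the testis, was called nowhere.

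In the endoplasmic reticulum, where secreted and membrane proteins fold, HSP90B1, HSPA13 and HSPA5 were lower at 188 dpn than at 94 dpc and DNAJB9 was higher. HSP90B1, the reticulum's HSP90 (GRP94), ran from 1701 through 1917 to 2326 at 94 dpc and from 540 through 884 to 1612 at 1 dpn, without overlap. It then ran from 992 to 1304 at 28 dpn and from 844 to 1315 at 188 dpn, and its change across birth was -1.19 (SE 0.21, adjusted p = 0.00013), or -1.02 on the even arrays. HSPA13, a small HSP70 relative of the same compartment, ran from 267 to 439 at 94 dpc and from 89.5 to 219 at 1 dpn, a fall of 1.33 (SE 0.24, adjusted p = 0.00022), with -1.32 on the even arrays. HSPA5, the reticulum's HSP70 (BiP), ran from 6152 through 7306 to 8542 at 94 dpc and read 4830, 3441, 2791 and 4381 at 188 dpn, with a fall of 0.95 (SE 0.26, adjusted p = 0.00539) end to end and no call in any single step.

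DNAJB9, a J-domain partner of BiP, instead read 1691, 1917, 1633 and 1578 at 188 dpn against 512 to 925 at 28 dpn and 332 to 509 at 94 dpc. It rose by 1.17 (SE 0.26, adjusted p = 0.00492) in the last step and by 2.00 (SE 0.26, adjusted p = 2.3e-06) end to end. Its 1 dpn signals were 463 to 684 on 5 arrays and 1582 on replicate 1, without which the change across birth went from 0.67 (adjusted p = 0.0314) to 0.42 and was not called; on the even arrays it was 1.19. That call was also lost without 94 dpc replicate 1, 3 or 5 (adjusted p up to 0.0694). DNAJB11 and DNAJC3, the other BiP partners measured, were called in no comparison.

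Other folding factors of the reticulum, from a list of 22 with 15 measured, gave 12 genes lower and none higher by limma from 94 dpc to 188 dpn, beside 27.0% of the named genes lower and 18.4% higher. The collagen isomerase FKBP10 fell by 3.56 (mean signal 2891 to 236), PDIA6 by 2.25, FKBP14 by 2.15 and the collagen chaperone SERPINH1 by 2.06. Across birth 1 of the 15 rose and 6 fell, beside 17.3% and 23.8% of the named genes. On the even arrays 1 rose and 4 fell, beside 7.79% and 17.6% of all probe sets. Marker genes of fibroblasts and matrix moved alongside: 8 of 10 were measured, and 7 fell from 94 dpc to 188 dpn, beside 27.0% of the named genes. The summed signal of these markers ran from 48888 to 68289 at 94 dpc, 16055 to 28270 at 1 dpn, 17272 to 33321 at 28 dpn and 12050 to 18917 at 188 dpn. Endothelial markers, 9 of 10 measured, summed to 15393 to 18292 at 94 dpc and 3664 to 5392 at 188 dpn. The part of these cell types in the lower reticulum chaperones was not tested.

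Of the cytosolic HSP90 genes, HSP90AA1 rose from 94 dpc to 188 dpn as deposited, with 0.17 and no call after quantile normalization, and HSP90AB1 fell from 1 dpn to 28 dpn. HSP90AA1, the inducible form, ran from 11185 through 11552 to 13046 at 94 dpc and from 14369 through 16604 to 23612 at 1 dpn, and from 12904 to 15378 at 28 dpn, and read 16375, 21515, 17665 and 22950 at 188 dpn. The 1 dpn and 188 dpn arrays were all above the fetal ones. It rose by 0.54 (SE 0.15, adjusted p = 0.00654) across birth as deposited, with 0.50 in the fit on the even arrays but -0.025 after quantile normalization. From 94 dpc to 188 dpn it rose by 0.72 (SE 0.16, adjusted p = 0.0012). Dimmer probe sets of HSP90AA1 gave 1.56 and 1.80 across birth, both called, and 0.19 and 0.43 with no call. HSP90AB1, the constitutive form, ran from 10601 through 14146 to 20886 at 1 dpn and from 9316 through 9960 to 11733 at 28 dpn, and fell by 0.56 (SE 0.17, adjusted p = 0.0182) in that step, or by 1.04 on the even arrays. Across birth HSP90AB1 changed by 0.08 as deposited, by -0.48 after quantile normalization and by 0.56 on the even arrays, so its direction there rested on the processing. The differences between HSP90AA1 and HSP90AB1 in the 3 steps were 0.45 (SE 0.23), 0.27 (SE 0.24) and 0.45 (SE 0.18), none past the threshold by exact permutation (adjusted p = 0.122, 0.332 and 0.0952).

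Of 18 listed HSP90 co-chaperones 14 were measured, and 5 rose and 1 fell across birth, beside 17.3% and 23.8% of the named genes. On the even arrays 7 rose and 1 fell in that step, beside 7.79% and 17.6% of all probe sets. FKBP5, an immunophilin of steroid receptor complexes and itself a glucocorticoid target, went from a mean signal of 89.3 to 1235, a rise of 3.47. FKBP4, PPID and STIP1, the adaptor between HSP70 and HSP90, rose by 1.12, 1.00 and 0.88. From 94 dpc to 188 dpn 7 rose and 2 fell, beside 18.4% and 27.0% of the named genes, with FKBP5 up by 4.00 and CDC37L1 by 2.37. UNC45B, the myosin chaperone of striated muscle, had mean signals of 3427, 4175, 3485 and 3942 over the 4 stages and was called in no comparison over all arrays.

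Of the 22 J-domain proteins, 7 rose and 4 fell across birth, beside 17.3% and 23.8% of the named genes, and 2 rose and 5 fell to 28 dpn, beside 15.1% and 12.9%. On the even arrays 9 rose and 2 fell across birth, beside 7.79% and 17.6% of all probe sets. To 28 dpn 1 rose and 4 fell on them, beside 11.2% and 5.39%. DNAJB6, a Z-disc co-chaperone of HSP70 mutated in a limb-girdle muscular dystrophy, ran from 776 through 996 to 1225 at 94 dpc, 2243 through 4174 to 8218 at 1 dpn and 1279 through 1763 to 2600 at 28 dpn. Its signals at 188 dpn were 2056, 2822, 3193 and 3796. Newborn arrays were all above fetal ones, and DNAJB6 rose by 2.03 (SE 0.24, adjusted p = 1.56e-06) and then fell by 1.23 (SE 0.24, adjusted p = 0.000797), with 2.10 and -1.29 on the even arrays. Its 4 probe sets did not move alike: across birth the dimmer ones gave -0.27, 0.36 and -0.81, with no call. Another set rose by 1.59 from 1 dpn to 28 dpn, and 1 more fell by 0.61 from 94 dpc to 188 dpn, where the brightest rose by 1.53.

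DNAJA4 had its lowest signals in the oldest pigs. It ran from 1184 to 2395 at 94 dpc, 1384 to 6205 at 1 dpn and 533 to 1853 at 28 dpn, and read 739, 410, 384 and 931 at 188 dpn, below every fetal array. Its log2 change was 1.23 (SE 0.35, adjusted p = 0.00849) across birth, -1.54 (SE 0.35, adjusted p = 0.00243) to 28 dpn and -1.32 (SE 0.39, adjusted p = 0.00946) from 94 dpc to 188 dpn. The first 2 changes were 1.96 and -2.27 on the even arrays. DNAJB2, which carries ubiquitin-interacting motifs and sorts clients to the proteasome, went the other way. It ran from 359 to 476 at 94 dpc and from 228 to 348 at 28 dpn, and read 718, 906, 1104 and 1111 at 188 dpn, above both ranges, with a rise of 1.59 (SE 0.26, adjusted p = 0.00045) in the last step. Its change across birth was -0.68 (adjusted p = 0.0287) over all arrays and of the opposite sign on the even arrays, 0.076 with no call. The call was also lost without 94 dpc replicate 1 or 3 or 1 dpn replicate 2, 4 or 5 (adjusted p up to 0.0744).

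DNAJA1 and DNAJB1, the main cytosolic partners of HSPA8, were each variable at 1 dpn. DNAJA1 read 3059 and 4145 on the even arrays and 536 to 1173 on the other 4, so its change across birth was -0.65 (adjusted p = 0.206) over all arrays and 0.84 (adjusted p = 0.0301) on the even ones. DNAJB1 ran from 258 to 1087 at 1 dpn and from 713 to 1096 at 28 dpn, and its rise of 0.75 (adjusted p = 0.0346) was 0.20 with no call on the even arrays and was lost without 1 dpn replicate 2, 3 or 5 or any 28 dpn array but replicate 3 (adjusted p up to 0.0872). From 28 dpn to 188 dpn DNAJA1 changed by 0.59 and DNAJB1 by -0.38, neither called alone, and their difference was 0.97 (SE 0.21), with exact permutation p = 0.00952, the smallest that 6 against 4 samples allow, and adjusted p = 0.0357. Leaving out any single array of these 2 stages gave 0.85 to 1.12 with adjusted exact p of 0.0519 to 0.0714. Fewer samples allow only a larger smallest exact p, so the exact p had to rise there whatever the signals. From 1 dpn to 28 dpn the change of DNAJA1 minus that of DNAJB1 was -0.99 (SE 0.36, adjusted exact p = 0.0519; -1.19 and 0.0286 without 1 dpn replicate 3), and across birth the difference was -0.06 (SE 0.36).

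Of the remaining J-domain genes, DNAJA2, a further HSPA8 partner, rose by 0.71 across birth (1.30 on the even arrays) and by 1.29 (SE 0.21, adjusted p = 3.92e-05) end to end. It read 1384 to 1458 at 188 dpn, where no fetal array exceeded 618. DNAJB4, a relative of DNAJB1, read 4011, 4266, 2867 and 1059 at 188 dpn against 1068 to 1617 at 28 dpn, and its rise of 1.03 (adjusted p = 0.0466) was lost in 17 of the 22 fits without 1 array, among them those without 188 dpn replicate 1, 2 or 3, with adjusted p up to 0.183. DNAJC24, an enzyme cofactor of diphthamide synthesis, rose by 1.82 (SE 0.26, adjusted p = 1.04e-05) across birth, or 1.22 on the even arrays, from 66.6 to 158 in the fetus to 167 to 580 in the newborn. DNAJC14, a reticulum protein that aids receptor export, ran from 979 to 1219 at 94 dpc and from 367 to 859 at 1 dpn, and fell by 1.11 (SE 0.20, adjusted p = 0.000153), while the even arrays gave -0.62 with no call. DNAJC9, a histone chaperone, fell by 0.89 (SE 0.25, adjusted p = 0.00861) across birth, with -0.90 on the even arrays; its newborn mean of 66.3 was below background, as were 3 of the 6 newborn arrays. DNAJC6, the auxilin of clathrin uncoating, was below background on all 6 fetal arrays, and its mean was at least 1.20-fold higher at 188 dpn. There 1 of the 4 arrays, at 69.1, was also below background.

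The mitochondrial chaperones were highest in the newborn. HSPE1, the lid of the mitochondrial chaperonin, ran from 10831 through 14067 to 15071 at 94 dpc and read 15639 on 1 dpn replicate 1 and 37562 to 59991 on the other 5. It ran from 7619 through 11151 to 14899 at 28 dpn and read 15504, 19165, 14749 and 11765 at 188 dpn. Newborn arrays stood above the fetal and 28 dpn ranges, replicate 1 only narrowly. HSPE1 rose by 1.55 (SE 0.25, adjusted p = 5.62e-05) and fell by 1.86 (SE 0.25, adjusted p = 1.66e-05), with 0.84 and -1.15 on the even arrays.

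HSPD1, the chamber that HSPE1 closes, ran from 3676 to 4554 at 94 dpc and from 3011 to 24037 at 1 dpn, where replicate 1 was below every fetal array. Its rise of 1.21 (SE 0.29, adjusted p = 0.00255) and fall of 0.95 (SE 0.29, adjusted p = 0.0208) were 0.44 and -0.19 with no call on the even arrays. The fall was also lost without 1 dpn replicate 4 (adjusted p = 0.0525). Against TCP1, a subunit of the cytosolic chaperonin, HSPD1 changed more across birth by 0.75 (SE 0.43), which did not pass the exact permutation test (adjusted p = 0.166).

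DNAJA3, the J-domain partner of HSPA9 in the matrix, ran from 516 through 732 to 913 at 94 dpc, 1866 through 2578 to 3069 at 1 dpn and 995 through 1080 to 1218 at 28 dpn. Neither neighbouring stage overlapped the newborn range, and DNAJA3 rose by 1.75 (SE 0.17, adjusted p = 1.34e-07) and fell by 1.14 (SE 0.17, adjusted p = 4.79e-05), with 1.40 and -0.79 on the even arrays. DNAJC19, the J-domain protein of the inner-membrane import motor, ran from 890 to 1188 at 94 dpc and from 1403 to 3385 at 1 dpn, and rose by 1.25 (SE 0.21, adjusted p = 9.56e-05), or 0.72 on the even arrays. Its change to 28 dpn was -0.83 (adjusted p = 0.00662) over all arrays and -0.30 with no call on the even ones. Of 13 listed mitochondrial protein quality genes 5 were measured. TIMM44, which tethers HSPA9 to the import channel, rose by 1.25 (SE 0.20, adjusted p = 4.76e-05) across birth and fell by 0.61 to 28 dpn. Across birth the HSPA9 exchange factor GRPEL1 gave 0.33 (adjusted p = 0.29) and the protease LONP1 0.28 (adjusted p = 0.18). On the even arrays 2 of the 5 measured genes rose across birth and none fell, beside 7.79% and 17.6% of all probe sets. To 28 dpn 1 rose and none fell on them, beside 11.2% and 5.39%, so the fall of TIMM44 was not called there.

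**Figure D4:**
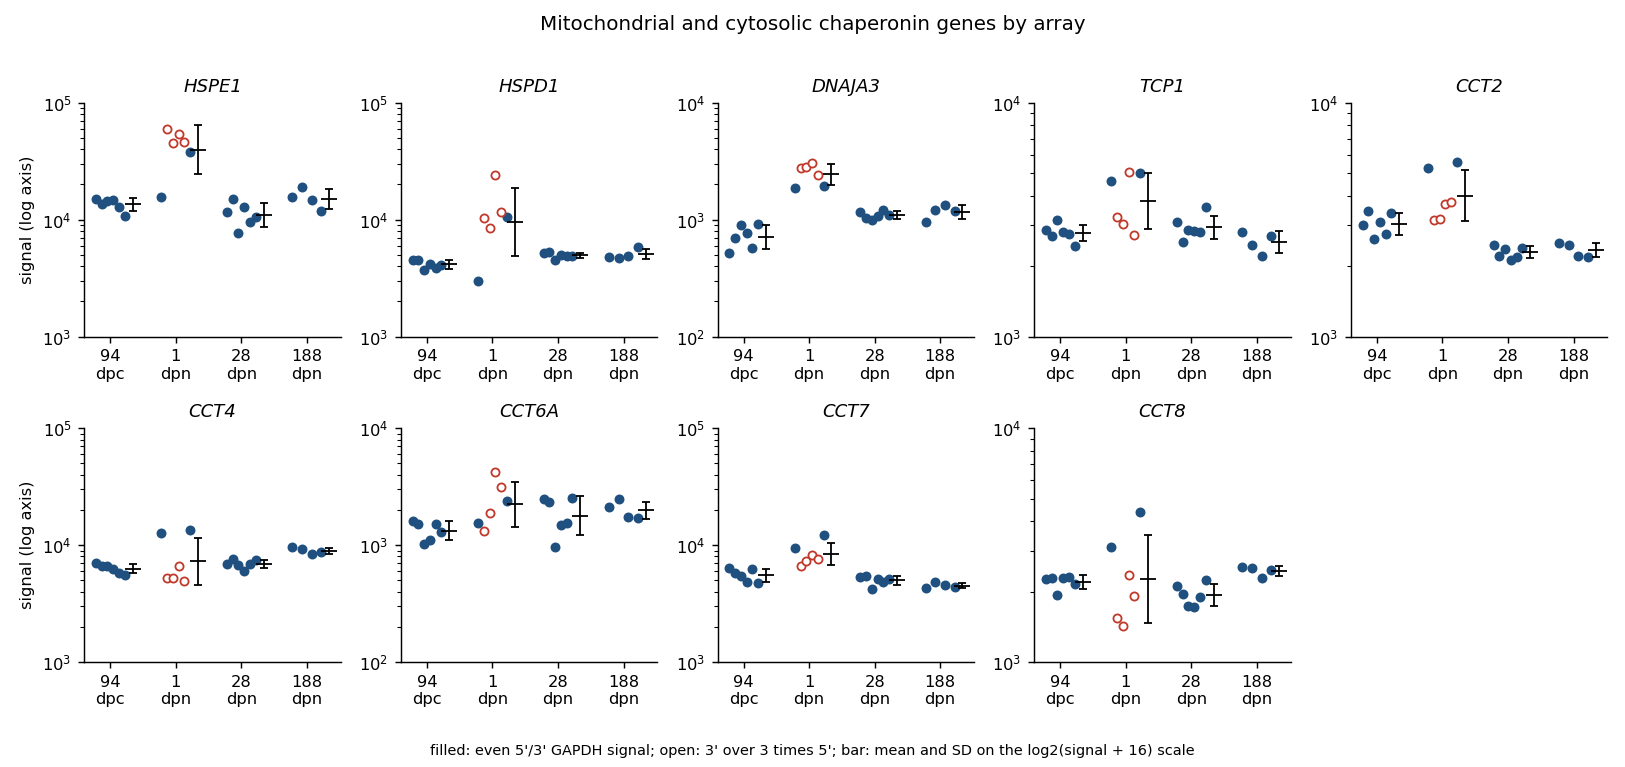
Signal (log axis) of HSPE1, HSPD1 and DNAJA3 and of TCP1, CCT2, CCT4, CCT6A, CCT7 and CCT8 on each array by stage; open red points are the 4 arrays of low 5′ signal, and bars give the mean and SD on the log2(signal + 16) scale. In CCT2, CCT4 and CCT8 the filled newborn points lie above all of the open ones.

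For the cytosolic chaperonin, 6 subunits were measured, and the result depended on which newborn arrays were used. CCT7 ran from 4720 through 5632 to 6397 at 94 dpc, 6594 through 7896 to 12239 at 1 dpn and 4229 through 5135 to 5494 at 28 dpn, with the newborn range above both others. It rose by 0.60 (SE 0.15, adjusted p = 0.00416) and fell by 0.74 (SE 0.15, adjusted p = 0.00112), or by 1.09 on the even arrays. CCT2 read 5277 and 5600 on the even newborn arrays and 3159 to 3745 on the others, and CCT4 read 12668 and 13351 against 4896 to 6654. CCT8 read 3105 and 4403 against 1426 to 2358, and TCP1 4621 and 4984 against 2711 to 5037.

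Over all arrays 3 of the 6 subunits rose across birth (CCT6A, CCT7 and TCP1), beside 17.3% of the named genes. On the even arrays 5 rose, beside 7.79% of all probe sets. Their changes were 0.84 for CCT2, 1.05 for CCT4, 0.95 for CCT7, 0.74 for CCT8 and 0.79 for TCP1. To 28 dpn, CCT2 and CCT7 fell over all arrays, beside 12.9% of the named genes. All subunits but CCT6A fell on the even ones, beside 5.39% of all probe sets. The call for CCT6A across birth was lost without 94 dpc replicate 3, 4 or 6 or 1 dpn replicate 4, 5 or 6 (adjusted p up to 0.106), and that for TCP1 without any 94 dpc array but replicate 3 or 1 dpn replicate 1, 4 or 6 (adjusted p up to 0.0962). The other probe sets of CCT6A, with mean signals of 1105 and 61.1, gave 0.06 and 0.71 across birth with no call. Over all arrays no subunit was called from 28 dpn to 188 dpn or end to end. In the fit on the even arrays CCT4 was called higher in both (0.38 and 0.51) and CCT2 lower end to end (-0.37). Prefoldin hands actin and tubulin to this chaperonin: of 5 measured subunits 3 rose from 94 dpc to 188 dpn, beside 18.4% of the named genes, PFDN4 by 0.67, PFDN1 by 0.66 and PFDN6 by 0.45.

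Leaving out the 4 uneven newborn arrays moved individual genes in both directions. The rise across birth grew for HSPB3 (1.28 to 2.70), BAG3 (1.72 to 2.68), HSPB1 (0.95 to 1.82) and CCT4 (0.21 to 1.05), and shrank for HSPE1 (1.55 to 0.84), HSPD1 (1.21 to 0.44) and DNAJC24 (1.82 to 1.22). The rise was nearly the same for HSPB7 (3.67 and 3.70) and DNAJB6 (2.03 and 2.10), as was the fall of HSPA13 (-1.33 and -1.32).

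**Figure D5:**
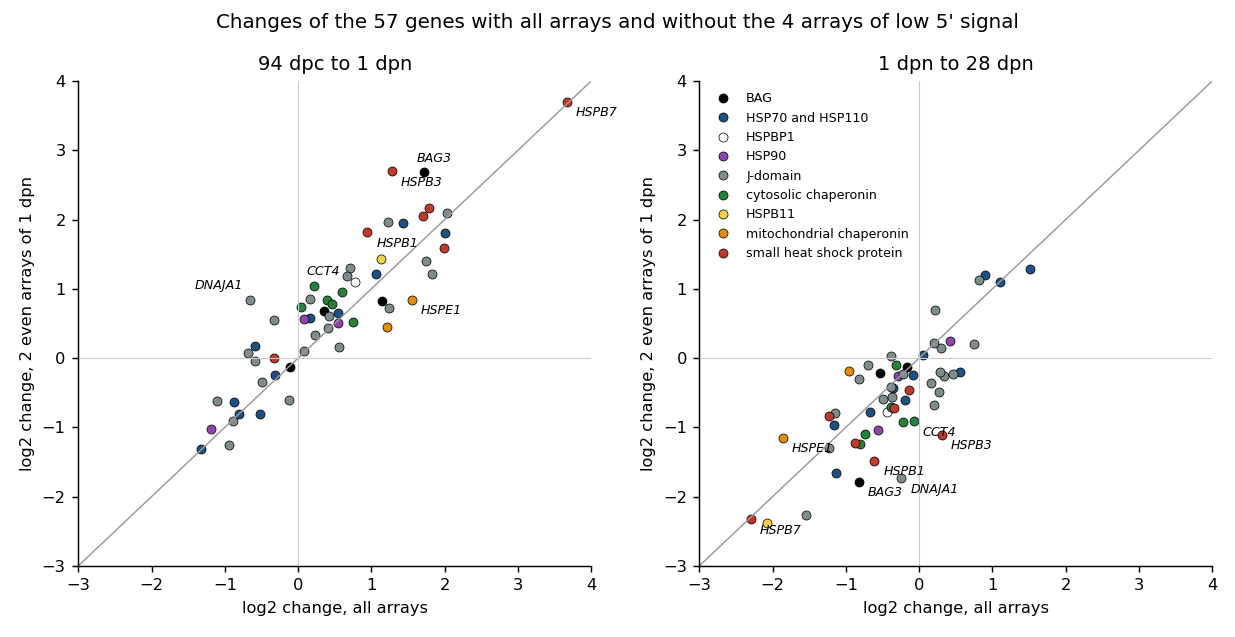
Log2 change from 94 dpc to 1 dpn of each of the 57 genes over all arrays (x axis) against the change with only the 2 even newborn arrays (y axis), by family; the diagonal marks equal change. HSPB7 lies at 3.67 and 3.70, and DNAJA1 at -0.65 and 0.84.

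HSPB11, the intraflagellar transport component, ran from 438 to 690 at 94 dpc, 701 to 2044 at 1 dpn and 205 to 315 at 28 dpn, with no overlap between successive ranges. It rose by 1.13 (SE 0.21, adjusted p = 0.000267) and fell by 2.07 (SE 0.21, adjusted p = 5.81e-07), with 1.44 and -2.38 on the even arrays. Its lower level at 188 dpn than at 94 dpc (-0.66, adjusted p = 0.032) was lost without 94 dpc replicate 2 or 3 or 188 dpn replicate 1 or 3 (adjusted p up to 0.124). At the other extreme, 13 genes were called in no comparison over all arrays by their brightest probe set, with log2 changes between -0.65 and 0.77. They were BAG5, BAG6, CCT4, CCT8, DNAJA1, DNAJB11, DNAJB14, DNAJC11, DNAJC3, DNAJC5, DNAJC8, HSPA2 and HSPBP1. Dimmer probe sets of some were called, such as DNAJA1 (-0.78 to 28 dpn), DNAJB14 (-0.90 across birth) and DNAJC8 (-0.74 across birth and 0.77 to 28 dpn). BAG1, BAG3, CRYAB, HSP70.2 and HSPA6 were called in all 4 comparisons by their brightest set.

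Of 11 listed stress transcription factors 8 were measured. HSF1, the heat shock factor, had mean signals of 557, 760, 661 and 815 over the 4 stages and was called in no comparison over all arrays. HSBP1, a small protein that binds heat shock factor, rose by 0.79 across birth and fell by 0.61 to 28 dpn. DDIT3, a transcription factor of the unfolded protein response, rose by 1.25 across birth, and XBP1, which drives reticulum chaperone genes, fell by 0.91. ATF4, the factor of the integrated stress response, had mean signals of 5760 at 94 dpc and 62705 at 188 dpn, a rise of 3.44 (SE 0.35, adjusted p = 6.15e-08). In the list for BAG3-dependent autophagy and its client filaments 8 of 11 genes were measured, and 6 rose and none fell by limma from 94 dpc to 188 dpn, beside 18.4% and 27.0% of the named genes. The autophagy receptor SQSTM1 rose across birth from a mean signal of 3453 to 10476, fell by 1.03 to 28 dpn and rose by 1.32 to 188 dpn, and the filament gene DES had mean signals of 16603, 19495, 24322 and 27774.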

How the data were processed

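RNA of 22 samples was hybridised to 1-colour Affymetrix porcine arrays. The deposited values are linear signal intensities, summarised per probe set by GCOS, version 1.1.1 in the submitters' processing notes. Tested on the files, each array has a mean of 500 after trimming 2% at each end, so scaling sets the depth; the number of arrays limits precision. Here log2(signal + 16) was computed from the deposited values; the pseudocount understates changes of dim genes. After leaving out 124 control probe sets, 23999 were fitted with limma 3.58.1 (R 4.3.3, statmod 1.5.0), 1 mean per stage, with empirical Bayes variances and Benjamini-Hochberg adjustment over all probe sets; a gene was called at adjusted p under 0.05. Gene names came from the platform annotation: 10069 probe sets had 1 symbol, 198 several (not used) and 13732 none; 56 of the 57 members matched RefSeq. Replicates are numbered in accession order.

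Fold limits for genes below background set the bright group's mean against, per array, the higher of the background and the gene's own signal. Gene pairs were compared by exact two-sided permutation tests over samples, adjusted over 15. Genes named with full values were the 8 called members of largest change in each of the 3 successive steps and a list of well-known members; of other lists up to 4 called genes are named, and further names were chosen after their values were seen. The members and lists were chosen with earlier results of these data known. On simulated data with 200 changed probe sets, changes of 2 log2 units were recovered in 86.4% (94 dpc to 1 dpn), 84.8% (1 dpn to 28 dpn), 83.3% (28 dpn to 188 dpn) and 78.8% (94 dpc to 188 dpn), and changes of 1 unit in 31.3%, 31.3%, 28.4% and 35.8%, over 23999 probe sets. The simulation gave a probe set the same spread at every stage and changed fewer probe sets than were called in the data. Its shares therefore do not give the recovery in the data. Alternatives were quantile normalization, centring on the array median, array weights, a robust trended variance prior, a pseudocount of 1, only the compared stages, a brightness filter, the mean of a gene's probe sets, a GAPDH 5′ to 3′ covariate, leaving out the 4 uneven arrays, and leaving out each array. Promoter and protein sequences were not used here.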

Additional observations from a re-analysis of the deposited data

Results flagged for a closer look

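In 9 of the 152 stage groups tested over 38 named genes, a single array stood apart from the rest of its stage by Dixon's criterion, which chance meets in about 1 group in 20. At 1 dpn 4 of the 9 were replicate 1, which is not one of the arrays of low 5′ signal: DNAJB4 read 572 there against 1118 to 1635 on the other arrays, DNAJB9 1582 against 463 to 684, DNAJC24 167 against 386 to 580, and HSPE1 15639 against 37562 to 59991. At 94 dpc, CCT8 read 1937 on replicate 3 against 2167 to 2301, and HSPB1 4994 on replicate 4 against 7267 to 8540. At 28 dpn, HSPA8 read 13832 on replicate 3 against 22065 to 27154, HSP90AB1 11733 on replicate 5 against 9316 to 10051, and HSPA6 246 on replicate 6 against 196 to 212.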

How the results depend on the processing

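No paired analysis was possible because the labels give no replicate numbers that link samples across stages. The count of genes lower across birth (8) was 4 after centring, 5 without the low 5′ arrays and 6 to 12 when single arrays were left out. The count higher from 1 dpn to 28 dpn (5) was 3 without the low 5′ arrays and 4 to 8 without single arrays (8 without 1 dpn replicate 6). From 28 dpn to 188 dpn the count higher (11) was 7 to 13 without single arrays, and the count lower (0) was 1 with the brightness filter, 1 with the GAPDH covariate and 0 to 1 without single arrays (1 without 28 dpn replicate 6). The count lower from 94 dpc to 188 dpn (7) was 4 after centring. All other counts stayed within 1.5 times of their values, the F test count of 41 between 39 and 45. Without the low 5′ arrays the pair differences were -0.59 (adjusted exact p = 0.153) and 0.72 (0.214) for HSPA8 against HSPA9. For HSPB1 against CRYAB the difference was -0.24 (0.214). These comparisons then had 6 samples against 2, which allow no exact two-sided p under 0.05, and no other cause was tested. The difference of DNAJA1 against DNAJB1 to 188 dpn used the same arrays as before and stayed at 0.97. Its adjusted exact p became 0.143 because it is adjusted over 15 comparisons, and those to or from 1 dpn had fewer samples. DNAJA1 against DNAJB1 to 28 dpn was -1.01 (0.0455) with a pseudocount of 1. Leaving out single arrays gave -1.06 to -0.85 and 0.96 to 1.22 for HSPA8 against HSPA9, -0.89 to -0.68 for HSPB1 against CRYAB, -1.19 to -0.76 and 0.85 to 1.12 for DNAJA1 against DNAJB1, 0.30 to 0.59 for HSP90AA1 against HSP90AB1 across birth, and 0.57 to 1.14 and -0.96 to -0.39 for HSPD1 against TCP1. Signs turned with the mean of a gene's probe sets for BAG1 (0.49) and DNAJB6 (0.060) to 28 dpn and HSPA8 across birth (-0.22) and end to end (-0.56), with quantile normalization for HSP90AA1 (-0.025) and HSP90AB1 (-0.48) across birth, and without the low 5′ arrays for DNAJA1 (0.84) and DNAJB2 (0.076) across birth and HSPB3 to 28 dpn (-1.11); the cause was not tested. Over the 38 named genes, 67 of 83 called changes were called in all 22 fits without 1 array. Scaling moved the median of all probe sets across birth from -0.08 as deposited to 0.05 (quantile) or 0.18 (centred). Signal over background limits DNAJC6, DNAJC9 and HSPA12A.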

Other observations

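Where a gene had several probe sets they often disagreed. Of the 25 such chaperone genes, all sets gave the same call in 12 across birth, 12 from 1 dpn to 28 dpn, 22 from 28 dpn to 188 dpn and 15 from 94 dpc to 188 dpn. Opposite calls occurred for BAG1, DNAJB6, HSPA9 and HSPB6 from 1 dpn to 28 dpn and for DNAJB6 and HSPA8 from 94 dpc to 188 dpn.

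Marker genes of other cell types moved over the same stages. Macrophage markers, 7 of 10 measured, summed to 3365 to 4127 at 94 dpc, 1574 to 3900 at 1 dpn, 3112 to 12802 at 28 dpn and 1771 to 6591 at 188 dpn. Adipocyte markers, 4 of 6 measured, summed to 3342 to 6412, 9209 to 16223, 5629 to 10990 and 2938 to 5299 at the same stages. Erythroid markers, 4 of 10 measured, lay between 550 and 2598 in single samples, and exocrine pancreas markers, 4 of 10 measured, between 2845 and 20309. The part of these cell types in the chaperone values was not tested.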
